A study of Homo sapiens with 6 samples.

Results

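The mRNA levels of 8 genes of cholesterol synthesis and its control by sterol regulatory element-binding proteins (SREBPs) were examined in HCT116 cells, an established human colorectal carcinoma line, after knockdown of PLEK2. The genes were HMGCS1, IDI1, FDFT1, SQLE, LSS, DHCR7, INSIG1 and SREBF2, taken by symbol from the deposited expression table. All 8 were found among its 17047 genes, and all 8 passed the filter on low counts that kept 12959 genes. Polyadenylated RNA was sequenced from 3 libraries of cells carrying a non-targeting shRNA (shNC) and 3 libraries of cells carrying a PLEK2 shRNA, so both groups carried an shRNA vector, delivered by lentivirus. A single PLEK2 shRNA sequence is listed by the study, and the labels do not say whether libraries 1, 2 and 3 of a group came from separate cultures. The p-values therefore measure only the spread between these libraries, which may be technical.

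Cholesterol is built from acetyl-CoA through the mevalonate pathway, which yields isoprenoid units that are joined into squalene, and squalene is then closed into the first sterol and trimmed to cholesterol. When sterols in the endoplasmic reticulum run low, SCAP escorts SREBP2 to the Golgi, where proteases release the part that enters the nucleus and switches on the genes of the pathway. When sterols are plentiful, INSIG proteins hold SCAP and SREBP2 back, and since INSIG1 is itself an SREBP target, the loop feeds back on itself.

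Library totals lay between 14377532 and 15602732 estimated counts, with replicate 1 the largest of its group in both groups, and each of the 8 genes had between 483 and 3714 counts in every library. The knockdown was visible in the targeted gene. PLEK2 stood at 86.0, 72.6 and 82.9 CPM (counts scaled to a common library size by the TMM method) in shNC 1, 2 and 3 and at 16.0, 32.2 and 34.9 CPM in knockdown 1, 2 and 3. Its log2 fold change was −1.54 (adjusted p = 0.684, edgeR's quasi-likelihood test over all genes tested), and −1.57 with the replicate number as a block (adjusted p = 0.00106). The replicate 1 libraries stood apart from the others within both groups: chi-square per gene between libraries was 14.3 to 20.2 where one of them was replicate 1, against 4.70 between shNC 2 and 3 and 3.06 between knockdown 2 and 3. Deviations from the group mean over 10141 genes correlated at 0.73, 0.55 and 0.54 between same-numbered libraries of the 2 groups, so the numbers were taken to pair the libraries. Libraries numbered 2 and 3 also correlated across the groups, at 0.34 and 0.35, and pairings of number 1 with another number gave −0.63 to −0.54. Of 10 colon epithelium markers 6 had a mean over 1 FPKM, while VIL1, LGALS4 and CEACAM5 were at or near 0. Their sum was lowest in replicate 1 of both groups, at 5060 FPKM in shNC 1 and 4221 FPKM in knockdown 1, and highest in replicate 2, at 5814 and 5381 FPKM. Most of the sum came from the keratins KRT8, KRT18 and KRT19. EPCAM did not follow it, lying between shNC 2 and 3 in shNC 1, at 156.6 FPKM. In knockdown 1 EPCAM was the highest of all libraries, at 171.6 FPKM. The part of the difference in the summed markers in the results below was not tested. The summed leukocyte markers stayed between 0.61 and 0.94 FPKM. The fibroblast markers summed to 4.66 to 6.04 FPKM in shNC and 4.36 to 4.98 FPKM in the knockdown, with 1 marker, COL1A1, over 1 FPKM, while the endothelial and hepatocyte sums stayed at or under 0.41 FPKM.

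Across the libraries 5 of the 8 genes moved together and 3 did not. The start regions of these genes are shown first, and a link between their letters and that movement was not tested. SREBP2 binds sterol regulatory elements, usually near sites of the factors NF-Y and Sp1. RefSeq promoter windows (GRCh38.p14, 250 bases before to 50 after the start of a transcript) were held for 6 of the 8 genes, all but SQLE and FDFT1, in 10 windows because HMGCS1, IDI1 and DHCR7 have more than 1 start. Both strands were searched for TCACNCCAC (a core of the sterol regulatory element, N being any base), CCAAT (the letters bound by NF-Y) and GGGCGG (the letters bound by Sp1). The stretches below, 1 for each of the 6 genes, were cut around the CCAAT and sterol element matches of a window. GGGCGG matches elsewhere in the window are not printed. For genes with more than 1 start, a window with a CCAAT match is shown. The stretches run 5′ to 3′ on the strand of the gene, with matches in capitals. A match on the opposite strand is read as its reverse complement (ATTGG for CCAAT).
SREBF2, chr22:41832960-41833015, plus strand: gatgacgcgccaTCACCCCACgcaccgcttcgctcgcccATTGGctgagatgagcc
HMGCS1, chr5:43313496-43313579, minus strand: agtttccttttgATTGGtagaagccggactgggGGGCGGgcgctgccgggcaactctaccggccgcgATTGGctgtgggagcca
IDI1, chr10:1048957-1049030, minus strand: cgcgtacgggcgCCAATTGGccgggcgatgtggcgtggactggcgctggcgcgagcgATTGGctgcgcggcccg
INSIG1, chr7:155297696-155297724, plus strand: cgccggcctcccATTGGttgcggccgcct
LSS, chr21:46228908-46228936, minus strand: cgcggcgctctgATTGGttgcgtgggcgt
DHCR7, chr11:71448425-71448499, minus strand: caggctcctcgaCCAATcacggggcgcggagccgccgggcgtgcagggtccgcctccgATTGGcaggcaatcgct

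The sterol element core matched only in the SREBF2 window among the 10 windows of these genes, at −133 to −125 from the start (the base before the start being −1), with a CCAAT match at −106 to −102. All windows of the annotation held this core in 1.13% of 35116 cases. CCAAT was found in 7 of the 10 windows, against 34.6% of all windows. Each of the 6 genes had it in at least 1 window, a count per gene that the share of windows does not match. In IDI1 the CCAAT matches of both strands overlap in the run CCAATTGG. GGGCGG was found in 9 of the 10 windows, against 45% of all windows. Windows of HMGCS1 and of IDI1 share bases, so the 10 windows are not 10 separate cases to set against these shares. These matches describe letters in a short window and say nothing of binding, and a missing match says only that those letters are not in that window.

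The knockdown left the 8 genes without a call. By edgeR, 0 of the 8 genes were under the adjusted threshold of 0.05, as were 0% of the 12959 genes tested, and 0 of the 8 were under an unadjusted p of 0.05, against 3.09% of all genes. With the replicate number as a block, 0 of 8 passed the adjusted threshold, against 0.849% of all genes, and 1 of 8, LSS, had an unadjusted p under 0.05, against 18.3% of all genes. DESeq2's Wald test called 0 of the 8, against 0.0926% of all genes, with 0 of the 8 at an unadjusted p under 0.05, against 2.27%. No gene of the 8 had shNC and knockdown libraries that failed to overlap, against 9.21% of all genes. The median log2 fold change was −0.06 over the 8 genes and −0.0021 over all genes tested. Larger differences went with the replicate number in most of the 8, as described below. The labels do not say what that number stands for.

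HMGCS1 (NCBI gene 3157) makes HMG-CoA, an early intermediate of the mevalonate pathway. Its level was 129.97, 67.7 and 52.9 CPM in shNC 1, 2 and 3 and 125.4, 71.1 and 66.4 CPM in knockdown 1, 2 and 3. Both replicate 1 libraries were well above the other 4, and the groups overlapped throughout. The group means were 83.5 ± 40.9 CPM for shNC and 87.6 ± 32.8 CPM for knockdown (SD, n = 3 each). Its log2 fold change was 0.07 (95% interval −0.71 to 0.84, adjusted p = 0.990, edgeR), and 0.10 with the block (−0.05 to 0.26, adjusted p = 0.456). The level in replicate 1 was 2.17 times the geometric mean of replicates 2 and 3 in shNC and 1.82 times in the knockdown.

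IDI1 (NCBI gene 3422) interconverts the isoprenoid units that the pathway joins. It measured 86.6, 47.9 and 42.4 CPM in shNC 1, 2 and 3 and 88.2, 46.6 and 49.7 CPM in knockdown 1, 2 and 3. As for HMGCS1, only replicate 1 was high, and it was high by much the same factor in the 2 groups, 1.92-fold in shNC and 1.83-fold in the knockdown. The knockdown change of IDI1 was 0.06 on the log2 scale (−0.64 to 0.76, adjusted p = 0.991, edgeR) and 0.07 with the block (−0.07 to 0.21, adjusted p = 0.618).

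FDFT1 (NCBI gene 2222), squalene synthase, takes the first step committed to sterols. It measured 163.8, 110.7 and 100.7 CPM in shNC 1, 2 and 3 and 148.1, 117.5 and 104.8 CPM in knockdown 1, 2 and 3. Replicate 1 was again the highest in both groups, by 1.55-fold and 1.34-fold. Its knockdown change was −0.02 on the log2 scale (−0.45 to 0.42, adjusted p = 0.995, edgeR) and −0.0043 with the block (−0.13 to 0.13, adjusted p = 0.980), and the sign of a value this near 0 turned with the scaling.

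SQLE (NCBI gene 6713), squalene epoxidase, oxidises squalene before ring closure and is a rate-limiting step of the later pathway. Its 3 shNC libraries measured 131.2, 98.04 and 82.1 CPM and its knockdown libraries 120.8, 99.5 and 90.5 CPM, in the order 1, 2 and 3. The same replicate 1 libraries were the highest, with a smaller excess of 1.46-fold in shNC and 1.27-fold in the knockdown. The fold change was −0.0025 on the log2 scale (−0.40 to 0.39, adjusted p = 0.999, edgeR) and 0.01 with the block (−0.12 to 0.14, adjusted p = 0.951), and this sign also turned with the scaling.

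LSS (NCBI gene 4047), lanosterol synthase, closes the ring to give the first sterol. It measured 54.8, 48.3 and 45.8 CPM in shNC 1, 2 and 3 and 43.2, 42.7 and 45.9 CPM in knockdown 1, 2 and 3. Knockdown 1 and 2 were below every shNC library, but knockdown 3 was level with shNC 3, so the groups overlapped. LSS had the largest knockdown difference of the 8, −0.18 on the log2 scale (−0.40 to 0.05, adjusted p = 0.968, edgeR), and −0.17 with the block (−0.33 to −0.02, unadjusted p = 0.0329, adjusted p = 0.228). The pairs gave −0.34, −0.18 and 0.01, and without replicate number 1 the blocked value was −0.08 (adjusted p = 0.588).

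DHCR7 (NCBI gene 1717), 7-dehydrocholesterol reductase, makes cholesterol in the last step. It measured 161.3, 164.7 and 148.0 CPM in shNC 1, 2 and 3 and 152.8, 147.1 and 142.0 CPM in knockdown 1, 2 and 3. Each knockdown library was below the shNC library of its number, by 0.08, 0.16 and 0.06 on the log2 scale, though knockdown 1 was above shNC 3. The log2 fold change was −0.10 (−0.28 to 0.08, adjusted p = 0.968, edgeR) and −0.10 with the block (−0.21 to 0.01, adjusted p = 0.336).

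INSIG1 (NCBI gene 3638) retains the SCAP and SREBP2 complex in the endoplasmic reticulum. It measured 81.2, 40.02 and 33.4 CPM in shNC 1, 2 and 3 and 67.5, 40.3 and 34.6 CPM in knockdown 1, 2 and 3. INSIG1 had the largest replicate 1 excess of the 8 in shNC, 2.22-fold, and 1.81-fold in the knockdown. Its log2 fold change was −0.12 (−0.91 to 0.67, adjusted p = 0.979, edgeR) and −0.09 with the block (−0.25 to 0.07, adjusted p = 0.556). The pairs gave −0.27, 0.01 and 0.05, so the difference lay in pair 1, and without number 1 the blocked value was 0.03 (adjusted p = 0.860).

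SREBF2 (NCBI gene 6721) encodes SREBP2, whose activity is set mainly by processing of the protein, which RNA sequencing does not measure. It measured 230.5, 252.8 and 230.0 CPM in shNC 1, 2 and 3 and 205.5, 244.0 and 218.8 CPM in knockdown 1, 2 and 3. Replicate 2 was the highest in both groups and knockdown 1 the lowest of all, and neither replicate 1 library was raised. Each knockdown library was below the shNC library of its number, with pair values of −0.17, −0.05 and −0.07. The log2 fold change was −0.09 (−0.29 to 0.11, adjusted p = 0.968, edgeR) and −0.10 with the block (−0.21 to 0.02, adjusted p = 0.348).

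**Figure D1:**
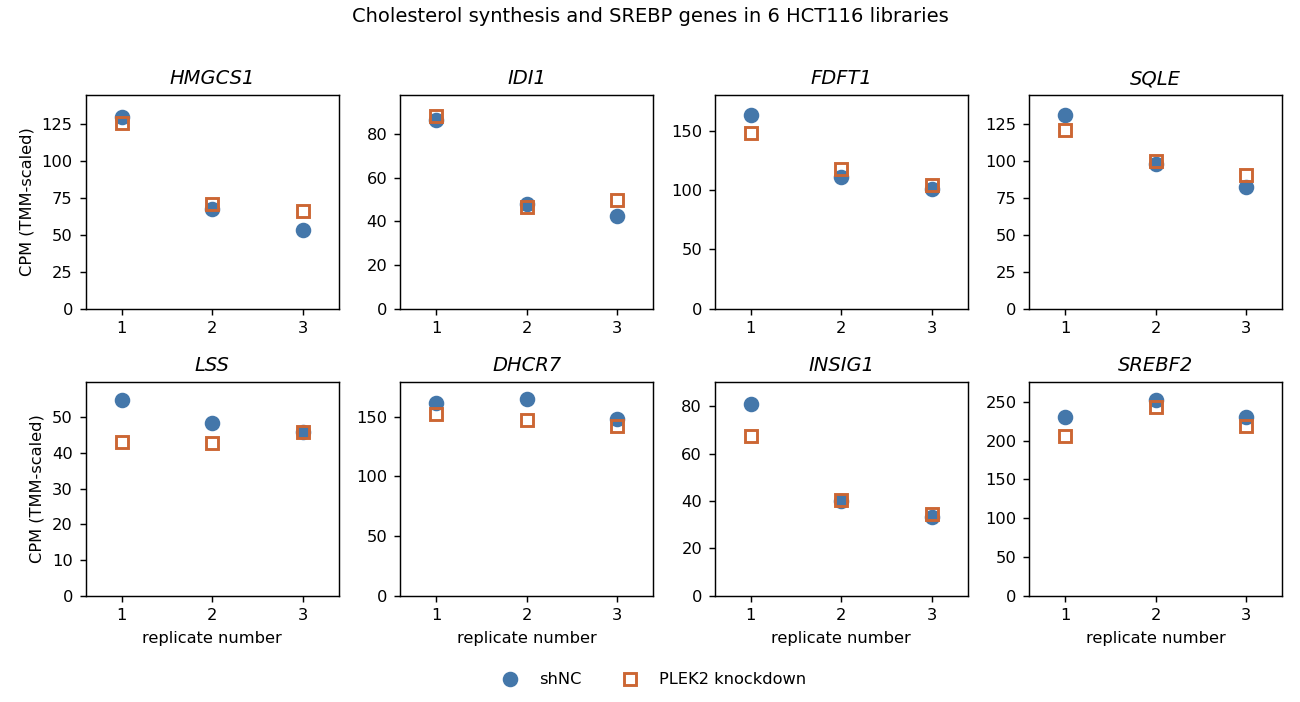
Level of each of the 8 genes in the 6 libraries, in TMM-scaled CPM on a linear axis from 0, against replicate number; filled circles are shNC and open squares PLEK2 knockdown, 1 library each. In HMGCS1, IDI1, FDFT1, SQLE and INSIG1 both replicate 1 libraries stand above the other 4, and LSS, DHCR7 and SREBF2 lack that step.

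The levels of most of the 8 genes differed with the replicate number. An F test of the replicate number in the fit with group and number, which asks whether any number differs and was chosen after these values were seen, called 5 of the 8 genes, 62.5%, against 28.4% of all genes tested. Its adjusted p was 3.42e-05 for HMGCS1, IDI1 and INSIG1 alike, 0.00036 for FDFT1 and 0.000861 for SQLE (edgeR). It was 0.0748 for SREBF2, 0.315 for DHCR7 and 0.606 for LSS, which did not pass. The same 5 genes had both replicate 1 libraries above the other 4, against 23.4% of all genes. Here and below, the shares over all genes include genes with far fewer counts, where differences are harder to detect. They were not matched for level, and the lists were chosen with earlier results of these data known. Replicate 3 against 2 in the same fit called 0 of the 8, against 0.00772% of all genes, with 4 of the 8 at an unadjusted p under 0.05, HMGCS1, SQLE, INSIG1 and SREBF2, against 6.84% of all genes.

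Replicate number took up 96.0% of the sum of squares of log2 CPM for HMGCS1, 97.6% for IDI1, 96.1% for FDFT1, 94.7% for SQLE and 97.4% for INSIG1. In those 5 genes the group took at most 1.403%, the value of HMGCS1. LSS was the opposite, with 13.1% for replicate number and 51.6% for group, and DHCR7 had 47.0% and 44.0%. SREBF2 lay between, at 69.4% and 24.2%. Over all genes tested the medians were 62.6% for replicate number and 12.3% for group. Replicate number has more levels than group, so it takes a larger share from random spread alone. The shares for number and for group are therefore not directly comparable. Across the 6 libraries the log2 CPM of the 5 genes correlated at 0.93 to 0.99 in their 10 pairings. SREBF2 ran against them, with r between −0.57 with IDI1 and −0.27 with SQLE, while LSS gave 0.35 to 0.47 and DHCR7 0.39 to 0.54. These values describe 6 libraries that all the genes share, and they follow the replicate 1 step.

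Replicate 1 minus the mean of replicates 2 and 3 was higher in shNC than in the knockdown for 7 of the 8 genes, all but DHCR7. The share over all genes was 49.3%. The 7 include SREBF2, which was below 0 in both groups (−0.07 in shNC and −0.17 in the knockdown on the log2 scale). LSS was below 0 in the knockdown (−0.04). The median of this signed difference over the 8 was 0.59 on the log2 scale in shNC and 0.38 in the knockdown, beside 0.0017 and −0.02 over all genes. In turn, the within-pair change was lowest in pair 1 for 6 of the 8 genes, 75%, against 36.1% of all genes, the exceptions being IDI1 and DHCR7. This count largely restates the one above, being taken from the same values, and most of these genes moved together. The median pair change was −0.13, −0.02 and 0.05 for pairs 1, 2 and 3. With 1 library per group and number, this difference between pairs was not tested. PLEK2 also fell most in pair 1, at −2.42, −1.17 and −1.24 for pairs 1, 2 and 3, and a link to the values of the 8 was not tested.

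**Figure D2:**
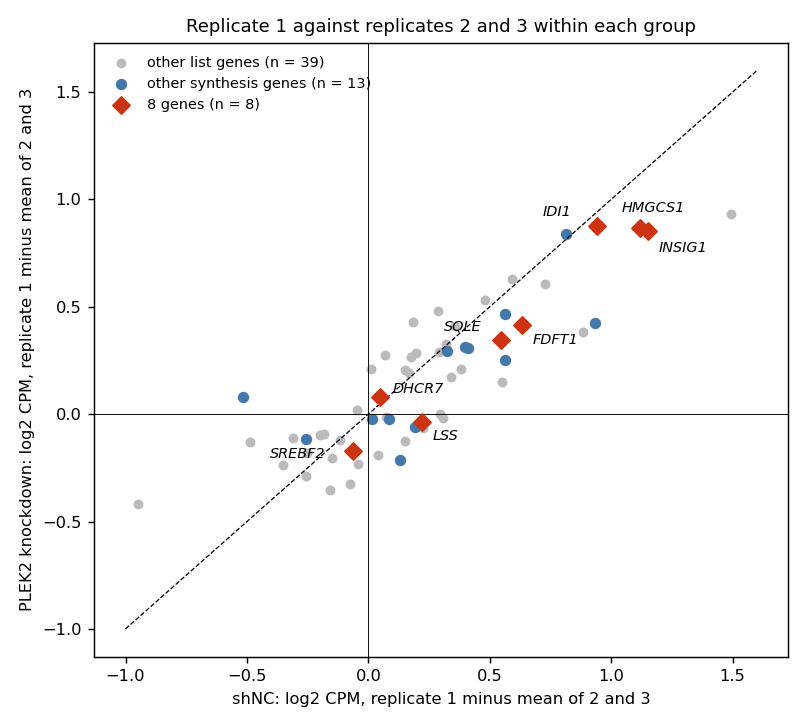
Replicate 1 minus the mean of replicates 2 and 3 in log2 CPM, in shNC (horizontal) and in the PLEK2 knockdown (vertical), for the 8 genes (diamonds), 13 other synthesis genes and 39 other genes of the lists (circles); the dashed line marks equal excess. INSIG1, HMGCS1 and IDI1 lie far to the upper right, at 1.15 and 0.85, 1.12 and 0.87, and 0.94 and 0.87, the unlabelled point beyond them is STARD4, at 1.49 and 0.93, and SREBF2 lies below 0 on both axes.

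Because the replicate step enters the error of an unblocked comparison, the precision of the 2 fits differed. For the 5 genes with the step the standard error of the log2 fold change was 0.17 to 0.35 without the block and 0.06 to 0.07 with it. Over the 8 genes the 95% intervals of the fold change reached from 0.532 to 1.80 without the block and from 0.794 to 1.19 with it. A 1.5-fold change in either direction was thus outside the interval of every one of the 8 genes in the blocked fit, but inside that of HMGCS1, IDI1 and INSIG1 in the unblocked fit. With replicate number 1 left out and the block kept, 0 of the 8 passed the adjusted threshold, against 4.06% of all genes. HMGCS1 was the 1 gene of the 8 with an unadjusted p under 0.05 there, against 19.3% of all genes, at 0.20 on the log2 scale (0.06 to 0.34, unadjusted p = 0.00665, adjusted p = 0.0912, edgeR).

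**Figure D3:**
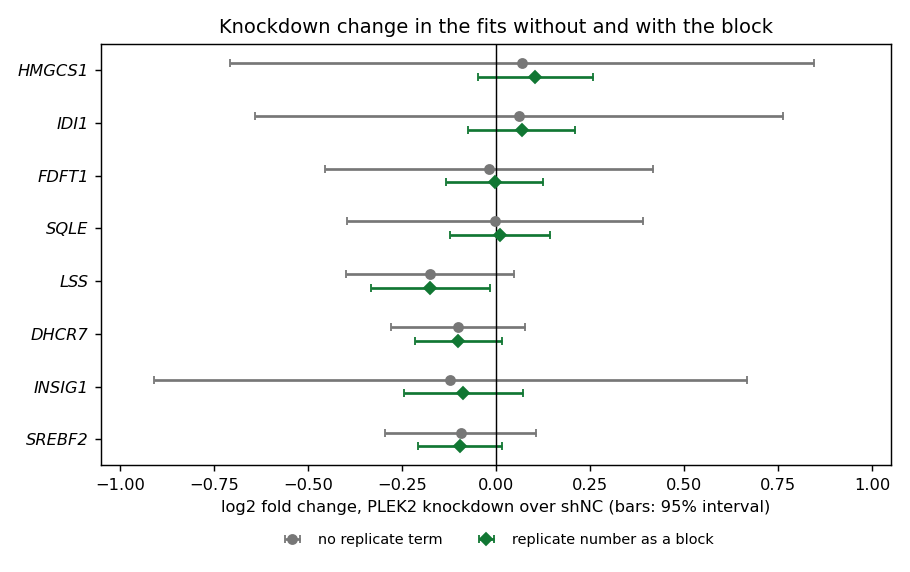
Log2 fold change of the PLEK2 knockdown over shNC for the 8 genes, with 95% intervals, in the fit without a replicate term (grey circles) and with the replicate number as a block (green diamonds). The intervals of HMGCS1, IDI1 and INSIG1 shrink the most, and with the block only that of LSS, −0.33 to −0.02, lies on one side of 0.

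Per transcript length, FDFT1 and DHCR7 were the most abundant of the 8, with means over the 6 libraries of 60.9 FPKM (range 49.0 to 79.0) and 60.3 FPKM (56.7 to 64.2). SREBF2 followed at 46.0 FPKM (42.3 to 49.5), then SQLE at 36.5 FPKM (28.9 to 45.4) and IDI1 at 29.3 FPKM (21.3 to 45.04). HMGCS1 at 17.6 FPKM (10.8 to 26.7), INSIG1 at 17.1 FPKM (11.6 to 27.6) and LSS at 12.1 FPKM (11.02 to 14.1) were the lowest. Among neighbours in this order only DHCR7 and SREBF2 had ranges that did not overlap. FDFT1 was above DHCR7 in 2 of 6 libraries only, the replicate 1 libraries.

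The step was not limited to these 8 genes. Of 19 genes of cholesterol synthesis from acetyl-CoA onwards, all tested, 11 passed the test of replicate number, 57.9% against 28.4% of all genes, and each of these had both replicate 1 libraries on top. DESeq2's likelihood ratio test of replicate number called 8 of the 19, against 16.5% of the 10697 genes it gave an adjusted p. The 11 called by edgeR were ACAT2, HMGCS1, MVK, IDI1, FDFT1, SQLE, CYP51A1, LBR, MSMO1, HSD17B7 and SC5D. The 8 that did not pass were PMVK, MVD, FDPS, LSS, TM7SF2, NSDHL, EBP and DHCR7, so both kinds are spread from the early to the late steps. Leaving out the 6 enzymes described above, 7 of the other 13 passed.

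By group, none of the 19 synthesis genes was called with or without the block, and 7 of them had an unadjusted p under 0.05 with it, against 18.3% of all genes. Without replicate number 1, the blocked fit called 1 of the 19, LBR, a sterol reductase of the inner nuclear membrane, at 0.22 (adjusted p = 0.0225, edgeR), against 4.06% of all genes. The libraries of the 2 groups did not overlap in 3 of the 19, MVD, FDPS and EBP, all lower in the knockdown, against 9.21% of all genes. FDPS, which makes farnesyl diphosphate, was the lowest of these by p, at −0.22 with the block (adjusted p = 0.105, edgeR). These names were picked after their values were seen. The median log2 fold change of the 19 was −0.02.

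**Figure D4:**
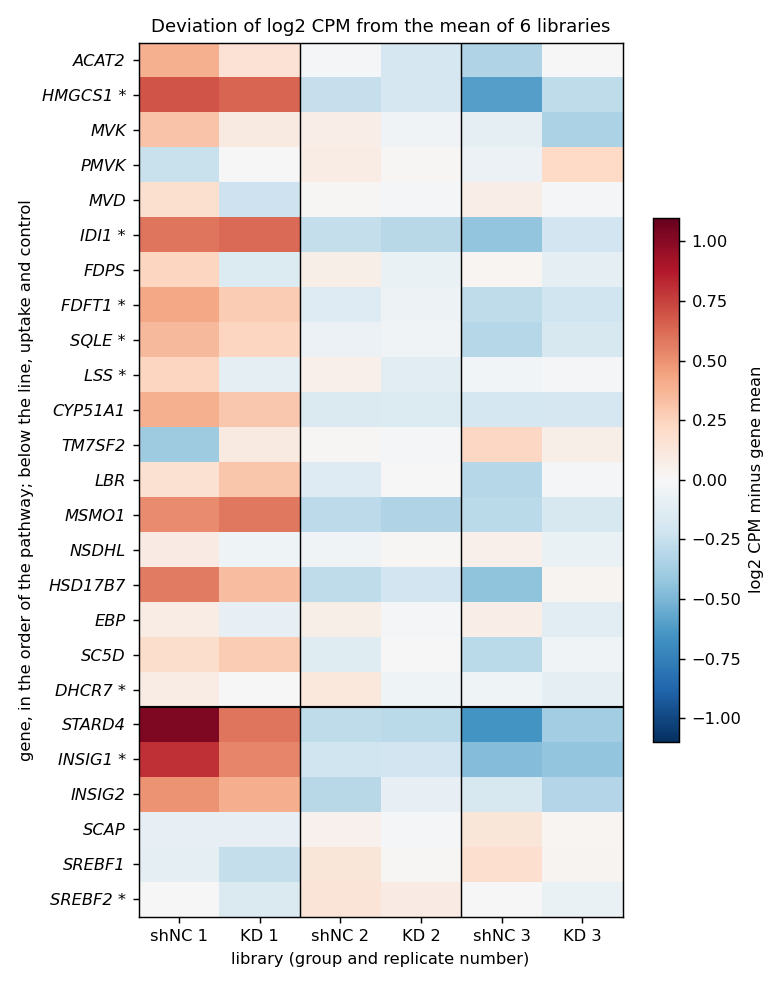
Log2 CPM minus the gene's mean over the 6 libraries, in colour, for the 19 synthesis genes in pathway order and, below the line, 6 genes of uptake and control; asterisks mark the 8 genes, and columns are grouped by replicate number. The replicate 1 columns are red for HMGCS1, IDI1, FDFT1, SQLE, MSMO1, STARD4 and INSIG1 in both groups, while SREBF1, SREBF2 and SCAP are not raised there.

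The control genes were divided as well. Of 9 genes of sterol sensing and SREBP processing, 4 passed the test of replicate number, 44.4% against 28.4% of all genes: INSIG1, INSIG2, MBTPS2 and SREBF1. INSIG2, the second retention protein, and the site-2 protease gene MBTPS2 were highest in replicate 1 of both groups, whereas SREBF1 was lowest in replicate 1 of both groups. Of 6 uptake and transport genes 3 passed, 50% against the same 28.4%. STARD4 and NPC1 were highest in replicate 1 of both groups, and NPC2 was lowest there. The sterol carrier gene STARD4 had the largest excess of any list gene, with 31.2, 12.6 and 9.69 CPM in shNC 1, 2 and 3 and 23.0, 12.4 and 11.7 CPM in knockdown 1, 2 and 3. Of 11 fatty acid synthesis targets 6 passed, 54.5%, of which ELOVL6, FADS1, ME1 and LPIN1 had both replicate 1 libraries on top and FASN and SCD did not. Of 9 genes of the non-sterol isoprenoid branch 4 passed, 44.4%, and of 6 tested genes of sterol efflux and storage 1, SOAT1, 16.7%. The share of all genes was 28.4%. No gene of these lists was called by group in edgeR's fit with the block and TMM scaling, the lowest adjusted p being 0.0545 for FASN, the fatty acid synthase. FASN was at −0.28 in that fit, and at −0.28 without the block (adjusted p = 0.968, edgeR). Next in the blocked fit were genes higher in the knockdown, RNF139 at 0.27 (adjusted p = 0.0817, edgeR) and ME1 at 0.21 (adjusted p = 0.0839). FASN passed with replicate number 1 left out (−0.20, adjusted p = 0.0237, edgeR), where 4.06% of all genes were called. It also passed with number 3 left out (−0.34, adjusted p = 0.0158), where 2.29% were. DESeq2's Wald test with the block also called FASN (−0.28, adjusted p = 0.00812), as it did 1% of the 5673 genes it gave an adjusted p. FASN was not called with number 2 left out or with the block and DESeq2's size factors.

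The genes closest to the averaged profile of the 8, by Pearson's r of log2 CPM with the mean of the 8 standardised profiles over the 6 libraries among 10133 genes, were UBN2 at 0.998, FNBP1L and LATS1 at 0.99, PAN3 at 0.99 and STC2 at 0.99. UBN2, for example, measured 51.2, 44.9 and 39.9 CPM in shNC 1, 2 and 3 and 46.3, 42.4 and 40.04 CPM in knockdown 1, 2 and 3, a shallower step than that of HMGCS1. Of the listed genes outside the 8, LPIN1 ranked 13 and STARD4 82 by this measure. The average joins 5 genes with the replicate 1 step and 3 without it, so it is the pattern of no single one of the 8: it stood at 1.22 SD in shNC 1 but 0.39 SD in knockdown 1, and MSMO1, which shares the step, ranked 790. These correlations rest on 6 libraries shared by every gene and describe likeness to that average only.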

How the data were processed

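RNA of 6 HCT116 libraries was examined, grouped and numbered by the submitters' labels. The authors deposited estimated counts per gene, without normalization, and FPKM values, with 84.2% to 85.4% of the counts whole. Deposited group means were not used. Submitters' processing notes name HISAT2 2.0.4, Bowtie2 2.2.5, RSEM 1.2.12, DESeq2 1.4.5 and a mouse build, GRCm38.p6, although the gene symbols are human, so no gene coordinates are given beyond RefSeq's own. Counts were rounded, filtered (filterByExpr), scaled (TMM) and tested by edgeR 4.0.16 (quasi-likelihood, Benjamini-Hochberg over 12959 genes) in R 4.3.3; 2-sided exact permutation of 3 against 3 cannot go below 0.1. Limma 3.58.1 and DESeq2 1.42.0 were alternatives, with other scalings, filters and left-out libraries, and a block on replicate number, chosen because same-numbered libraries deviated together (every correlation over 0.1). Pairing number 2 with 3 across the groups would also pass this rule, at 0.34 and 0.35. The rule alone thus does not tell these numbers apart, and the blocked results and pair values rest on the numbering. Standard errors were the log2 fold change divided by the root of F. Intervals cover 95%. The tests were tried on simulated data.

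The members and lists were chosen with earlier results of these data known. Named genes were the 8, PLEK2, list genes with a blocked adjusted p under 0.05 (none) and the 5 closest to the averaged profile of the 8; others were named after their values were seen. Plots used matplotlib 3.10.9. Some genes are not reported here and were left out of the lists.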

Additional observations from a re-analysis of the deposited data

How the results depend on the processing

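None of the 8 genes was called under any of 20 alternatives, and the test of replicate number called 5 of the 8 under each of its 4 alternatives. LSS, DHCR7 and SREBF2 kept their direction throughout. SQLE and FDFT1, both near 0, changed sign. SQLE gave 0.0062 with DESeq2 size factors, 0.031 with library totals, 0.0074 with both other filters, 0.0063 with DESeq2's Wald test and 0.0446 and 0.0461 with limma (pseudocounts 1 and 0.1). With the replicate block it gave 0.0108, 0.0424 with library totals, 0.0191 with size factors, 0.0205 with DESeq2, 0.0854 without number 1 and 0.0189 without number 2. FDFT1 gave 0.0145 with library totals and 0.0319 and 0.0326 with limma, and with the block 0.0272 with library totals, 0.0039 with size factors, 0.0051 with DESeq2 and 0.0766 without number 1. INSIG1 gave 0.0327 with the block without number 1, and the median of the 8 was then 0.0547. Leaving out single libraries moved SQLE from -0.136 to 0.216, FDFT1 from -0.171 to 0.237, INSIG1 from -0.46 to 0.38, HMGCS1 from -0.28 to 0.55, IDI1 from -0.29 to 0.46, the median of the 8 from -0.17 to 0.23 and that of the synthesis list from -0.137 to 0.177. Removing shNC 1 gave the highest of these and knockdown 1 the lowest, except for SQLE, lowest without shNC 3; either removal leaves a replicate 1 library without its partner.

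PLEK2 was called by DESeq2 (-1.53) and with the block (-1.57; library totals -1.54, size factors -1.56, DESeq2 -1.60, without number 1 -1.21, without 2 -1.78, without 3 -1.74), and ranged from -1.74 to -1.26 without single libraries, being called without knockdown 1. Genes called numbered 0 without the block, with 400 at an unadjusted p under 0.05, and 0 to 1 without single libraries. They numbered 12 by DESeq2. With the block they numbered 110, and with the block kept 192 under library totals, 85 under size factors, 57 by DESeq2, and 528, 18 and 297 without numbers 1, 2 and 3. Of the synthesis list 1 gene was called with the block without number 1 (LBR, higher). With the block and library totals, 1 sterol sensing gene (RNF139) and 2 fatty acid genes (FASN, ME1) were called, and with the block and DESeq2 1 (FASN). By replicate number, DESeq2's likelihood ratio test called 1765 genes, against 3684, and 8 of the synthesis list, against 11. Where a setting changed a count, the cause was not tested.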
